A study of Mus musculus with 12 samples.

Results

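The nuclear-encoded subunits of the mitochondrial respiratory chain and ATP synthase were examined in isolated glomeruli of mice with and without anti-GBM glomerulonephritis (anti-GBM GN), a model in which serum raised against the glomerular basement membrane binds along the capillary wall. Members were taken by name: genes with a single annotated symbol beginning Ndufa, Ndufb, Ndufc, Ndufs, Ndufv, Uqcr, Cox4i, Cox5, Cox6, Cox7, Cox8 or Atp5, together with Sdha, Sdhb, Sdhc, Sdhd and Cyc1, without the Ndufaf assembly factors, pseudogenes or antisense genes. This gave 83 of the 18201 genes on the array: 34 of complex I, 4 of complex II, 9 of complex III, 19 of complex IV and 17 of complex V. Of these, 77 had a signal above 3.03 (the median over all probe sets and arrays) on 3 or more arrays and were tested, among 11921 genes. Subunits encoded by the mitochondrial genome are not named by this rule.

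The study used 12 female mice aged 8 to 10 weeks from Charles River, with 3 controls and 3 mice with anti-GBM GN of each of the inbred strains C57BL6J and 129S2SvPAs, which makes 4 groups (the label of the latter's controls spells the strain 129S2SvPAS). Nephrotoxic serum was given on days 0, 1 and 2, kidneys were taken on day 4, and glomeruli were collected on sieves of 100 and 45 µm. Biotin-labelled total RNA of each mouse was hybridised to 1 Affymetrix array, and no transgene or deletion is named. The control samples carry the same protocol text on serum as the challenged ones, so the groups rest on the sample titles and the treatment label. Values are log2 probe set signals, and every difference below is a difference of log2 values, with its standard error (SE) from limma. Adjusted p-values were Benjamini-Hochberg corrected over all 11921 genes, and those under 0.05 count as calls.

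Complex I (NADH dehydrogenase) and complex II (succinate dehydrogenase) pass electrons from NADH and succinate to coenzyme Q, complex III passes them to cytochrome c, and complex IV (cytochrome c oxidase) passes them to oxygen. The proton gradient this builds drives complex V, the ATP synthase. In the kidney these complexes are most abundant in the tubules that reabsorb salt and solutes, among them the proximal tubule, and glomerular cells are known to rely on them less. Transcription of the subunits is known to be raised by NRF1, by the ETS family factor GABP, by YY1 and by the estrogen-related receptors, together with the coactivator PGC-1α (Ppargc1a).

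Promoter sequences were read from a RefSeq table on GRCm38.p6, the C57BL/6J reference, which gives 250 bases before to 50 bases after each gene's start and holds 67 of the 83 members. Both strands were searched for the letters GCGCA, any base, GCGC (NRF1), CCGGAAG (ETS), TCAAGGTCA (estrogen-related receptors) and AANATGGCG (YY1), none of which overlaps another in the sequences shown. The NRF1 letters were present in 15 of 67 members (22.4%, against 7.17% of 17492 genes) and the ETS letters in 17 (25.4%, against 12.9%). The YY1 letters were present in 9 (13.4%, against 3.64%) and the receptor letters in 2 (2.99%, against 0.377%). Either the NRF1 or the ETS letters were found in 28 members (41.8%, against 18.6%). A match is a description of the letters and not a binding site.

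The promoters of 5 members on which the results turn are printed 5′ to 3′ on the gene's strand, with any match in capitals. Ndufa6 (chr15:82354242-82354541, minus strand) led the complex I genes, and its NRF1 letters lie on the opposite strand, 24 to 33 bases after the start. Ndufs3 (chr2:90904672-90904971, minus strand) has the ETS letters 27 to 21 bases before the start and, on the opposite strand, 2 to 8 bases after it. Sdhb (chr4:140961021-140961320, plus strand), the leading gene of complex II, has them 7 to 13 bases after the start. Cox7a1 (chr7:30183921-30184220, plus strand) and Cox6b2 (chr7:4753045-4753344, minus strand) are tissue isoforms of complex IV with the widest responses, and their windows hold none of the 4 motifs.
Ndufa6: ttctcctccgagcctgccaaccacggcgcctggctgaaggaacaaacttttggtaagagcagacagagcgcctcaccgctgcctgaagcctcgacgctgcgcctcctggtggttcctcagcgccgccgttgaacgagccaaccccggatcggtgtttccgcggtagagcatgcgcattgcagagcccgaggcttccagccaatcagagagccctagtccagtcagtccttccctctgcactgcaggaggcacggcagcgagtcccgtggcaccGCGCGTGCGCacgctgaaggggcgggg
Ndufs3: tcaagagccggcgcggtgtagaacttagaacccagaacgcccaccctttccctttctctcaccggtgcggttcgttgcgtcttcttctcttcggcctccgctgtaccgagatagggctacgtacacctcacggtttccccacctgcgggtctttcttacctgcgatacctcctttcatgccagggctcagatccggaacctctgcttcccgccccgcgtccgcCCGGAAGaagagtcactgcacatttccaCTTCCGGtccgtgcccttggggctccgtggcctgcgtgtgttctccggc
Sdhb: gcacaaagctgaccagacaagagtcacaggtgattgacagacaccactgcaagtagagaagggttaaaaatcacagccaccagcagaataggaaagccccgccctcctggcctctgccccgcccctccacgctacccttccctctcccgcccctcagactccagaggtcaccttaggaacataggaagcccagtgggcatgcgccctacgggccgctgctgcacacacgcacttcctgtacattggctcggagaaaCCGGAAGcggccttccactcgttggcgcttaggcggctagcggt
Cox7a1: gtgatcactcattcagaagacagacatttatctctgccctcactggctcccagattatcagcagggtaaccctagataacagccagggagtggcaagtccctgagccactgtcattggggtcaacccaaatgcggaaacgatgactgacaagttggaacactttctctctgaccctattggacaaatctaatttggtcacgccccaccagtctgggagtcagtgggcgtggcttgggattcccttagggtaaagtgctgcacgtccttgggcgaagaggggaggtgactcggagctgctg
Cox6b2: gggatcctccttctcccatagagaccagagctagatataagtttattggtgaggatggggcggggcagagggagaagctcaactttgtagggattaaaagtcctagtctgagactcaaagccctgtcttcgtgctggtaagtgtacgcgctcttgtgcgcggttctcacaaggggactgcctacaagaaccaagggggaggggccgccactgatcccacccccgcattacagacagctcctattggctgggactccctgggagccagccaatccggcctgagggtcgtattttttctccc

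Members with and without these letters had near-equal responses. The median difference between anti-GBM GN and control, averaged over both strains, was -0.26 for the 14 tested members with the NRF1 letters and -0.26 for the 50 without them. For the ETS letters it was -0.26 with (17 members) and -0.26 without (47 members). These medians carry no test.

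On the arrays as a whole, replicates of a group correlated at r = 0.973 to 0.994, and the lowest values belong to 129S2SvPAs anti-GBM GN replicate 1 (0.974 and 0.973 with its group, against 0.994 between the other two). Fixed marker lists were used to see which cell types left transcripts in the samples. Passing the filter needs only a signal above 3.03 on 3 arrays, so it does not measure how pure the glomeruli were. All 17 podocyte markers with a usable probe set passed the filter, among them Nphs1, Podxl, Wt1 and Synpo, as did all 20 endothelial markers. Mean levels over the arrays ran from 6.53 to 8.32 for the podocyte list and from 6.83 to 9.19 for the endothelial list. Both lay below the proximal tubule list on every array, though levels of different probe sets do not measure shares of cells. Proximal tubule transcripts were also present: 21 of 25 markers passed the filter, Slc7a13 and Acsm3 did not, and the others were not analysed here. The tubule list's mean level was 12.03 to 12.31 in C57BL6J controls, 11.72 to 12.05 in C57BL6J anti-GBM GN, 12.13 to 12.33 in 129S2SvPAs controls and 11.61 to 11.74 in 129S2SvPAs anti-GBM GN, so it did not overlap between the 129S2SvPAs groups. In RNA from whole glomeruli, fewer cells of a type and less RNA per cell cannot be told apart. The design states separate mice, so p-values measure the spread between animals, and the 3 arrays per group limit the precision.

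Respiratory chain transcripts were lower in anti-GBM GN than in control glomeruli in both strains, by a small amount spread over many genes. Over the 77 tested members the mean level was 12.18, 12.10 and 12.10 in the C57BL6J controls and 11.92, 11.79 and 11.90 in C57BL6J anti-GBM GN. It was 12.08, 12.07 and 12.30 in the 129S2SvPAs controls and 11.85, 11.84 and 11.93 in 129S2SvPAs anti-GBM GN. In each strain every challenged array lay below every control array, as the plot of complexes by array shows. The median difference was -0.26 in C57BL6J and -0.27 in 129S2SvPAs, beside -0.03 and 0.00 over all 11921 genes.

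**Figure D1:**
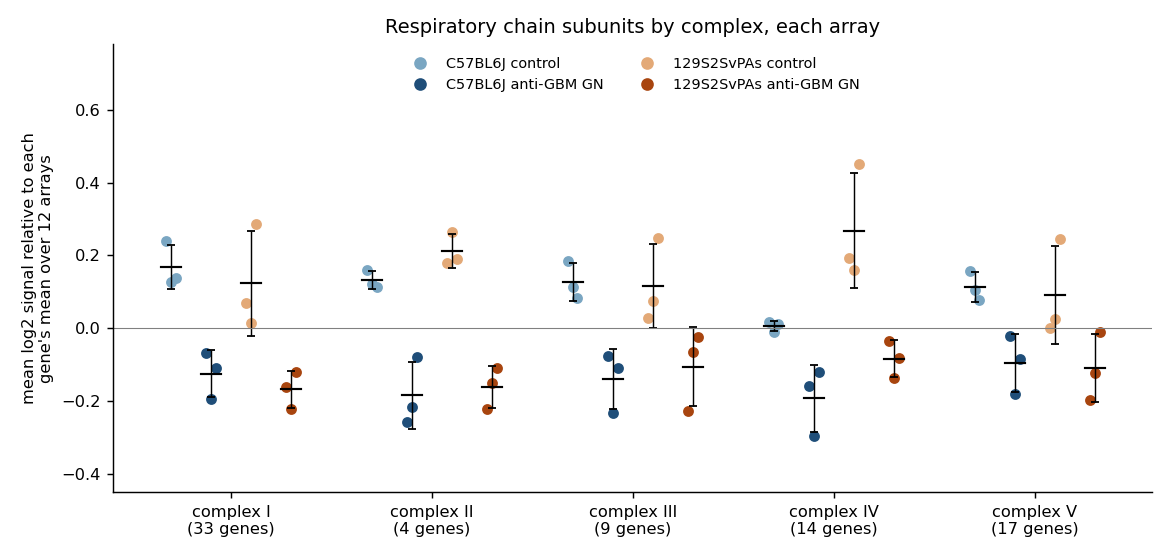
Mean log2 signal of the tested subunits of complexes I to V on each of the 12 arrays, after subtracting each gene's overall mean. Points are arrays, horizontal lines are group means and bars are 1 SD (n = 3); the challenged arrays lie below the controls of their strain in all 5 complexes, by as little as 0.00 against -0.01 for single 129S2SvPAs arrays of complex V, and 129S2SvPAs control replicate 3 of complex IV is highest at 0.45.

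Averaged over both strains, limma called 27 of the 77 members lower and 0 higher, where 26.6% of all genes were called, 13.6% lower and 13% higher. At an unadjusted p under 0.05 there were 43 (37.9% of all genes), and 76 of the 77 differences were below 0 (52.6% of all genes), all except Ndufv3 at 0.05. By complex, 16 of 33 genes fell in complex I, 2 of 4 in complex II, 4 of 9 in complex III, 2 of 14 in complex IV and 3 of 17 in complex V. The shares in complexes IV and V, 14.3% and 17.6%, were near the 13.6% of all genes called lower. The median differences in the same order were -0.32, -0.34, -0.27, -0.17 and -0.21, beside -0.02 over all genes. Differences between complexes were not tested, and the members share the same arrays, so these counts are not independent. The count of 27 was 15 without C57BL6J control replicate 1 and 16 without C57BL6J anti-GBM GN replicate 2.

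Complex I held most of the calls. In its electron input module, which binds NADH, 5 of 10 genes fell: Ndufa6 (-0.56), Ndufs4 (-0.57), the iron-sulfur subunit Ndufs1 (-0.38), the acyl carrier protein Ndufab1 (-0.36) and Ndufv2 (-0.34). The call of Ndufv2 was lost without any 1 of 8 arrays (limma adjusted p of 0.0547 to 0.0986). Those of Ndufs4 and Ndufab1 were each lost without either of 2. In the quinone module, which hands electrons to coenzyme Q, 3 of 5 fell: Ndufs3 (-0.37), Ndufa9 (-0.33) and Ndufs8 (-0.32). Of the 18 tested accessory subunits of the membrane arm 8 fell, from Ndufb5 (-0.41) to Ndufa8 (-0.25). The NADH-binding subunit Ndufv1 was at -0.18 and was not called.

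Ndufa6, an LYR-motif protein that docks the acyl carrier protein onto complex I, had the lowest p of all members. Its level was 12.34, 12.26 and 12.26 in C57BL6J controls, 11.96, 11.66 and 11.77 in C57BL6J anti-GBM GN, 11.99, 11.95 and 11.99 in 129S2SvPAs controls and 11.07, 11.39 and 11.55 in 129S2SvPAs anti-GBM GN. The challenged arrays were below the controls in both strains without overlap, and the average difference was -0.56 (SE 0.09, limma adjusted p = 0.0013). It was the single member called lower in each strain on its own, with an adjusted p close to the threshold in C57BL6J (0.0481).

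Ndufs3, a core subunit of the quinone module, was at 11.55, 11.44 and 11.51 in C57BL6J controls, 11.09, 11.21 and 11.27 in C57BL6J anti-GBM GN, 11.54, 11.61 and 11.66 in 129S2SvPAs controls and 11.28, 11.12 and 11.12 in 129S2SvPAs anti-GBM GN. The groups did not overlap in either strain, and the average difference was -0.37 (SE 0.07, limma adjusted p = 0.00261). Ndufa9, which stabilises the junction of the matrix and membrane arms, was at 11.84 to 11.95 and 11.92 to 12.01 in C57BL6J and 129S2SvPAs controls, and at 11.54 to 11.66 and 11.52 to 11.66 in the challenged mice. It fell by 0.33 (SE 0.06, limma adjusted p = 0.0033), again with no overlap.

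**Figure D2:**
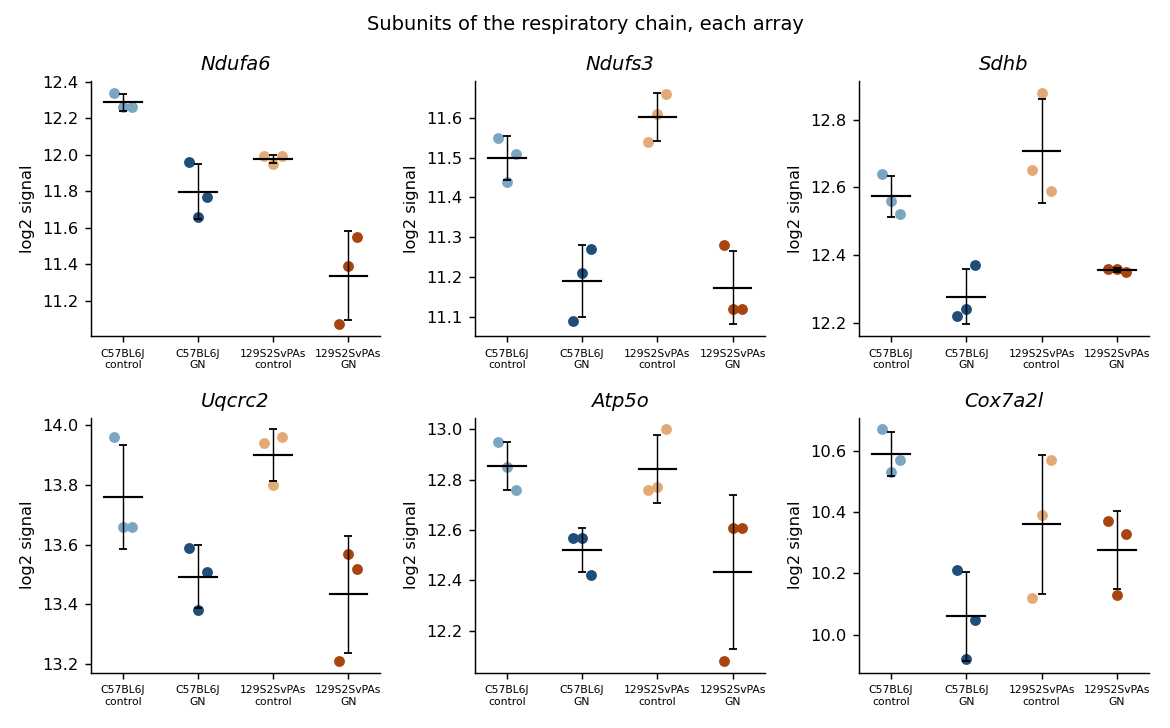
Log2 signal of 6 subunit genes on each array, in the 4 groups (n = 3 each); lines are means and bars 1 SD, and each panel has its own vertical scale that does not start at 0. Challenged arrays (darker points) lie below the controls of their strain without overlap in Ndufa6, Ndufs3, Sdhb, Uqcrc2 and Atp5o, while in Cox7a2l they do so in C57BL6J and overlap in 129S2SvPAs.

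In complex II, which also works in the tricarboxylic acid cycle, the iron-sulfur subunit Sdhb was at 12.64, 12.56 and 12.52 in C57BL6J controls and 12.22, 12.24 and 12.37 in C57BL6J anti-GBM GN. In 129S2SvPAs it was at 12.65, 12.88 and 12.59 in controls and 12.36, 12.36 and 12.35 in anti-GBM GN. The groups were apart in both strains and the average difference was -0.32 (SE 0.07, limma adjusted p = 0.0079). The membrane anchor Sdhd fell by 0.47, while the anchor Sdhc (-0.36, limma adjusted p = 0.0527) and the flavoprotein Sdha (-0.23) did not pass the test.

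In complex III the 4 catalytic and core subunits fell, and the 5 small ones were not called on the probe sets chosen. The core subunit Uqcrc2 was at 13.96, 13.66 and 13.66 in C57BL6J controls, 13.59, 13.38 and 13.51 in C57BL6J anti-GBM GN, 13.94, 13.80 and 13.96 in 129S2SvPAs controls and 13.21, 13.57 and 13.52 in 129S2SvPAs anti-GBM GN. Challenged arrays were lower without overlap, and the average difference was -0.37 (SE 0.09, limma adjusted p = 0.0141). The Rieske iron-sulfur protein Uqcrfs1 (-0.36), cytochrome c1 (Cyc1, -0.31) and the core subunit Uqcrc1 (-0.27) fell too, but the calls of Uqcrfs1 and Uqcrc1 were each lost without any 1 of 7 arrays and that of Cyc1 without any 1 of 4 (adjusted p of 0.0521 to 0.0921). The small subunits Uqcr11 (-0.27) and Uqcrh (-0.26) were lower by about as much as Uqcrc1, Uqcrq was at -0.23, and the kinds of subunit were not compared by a test. Other probe sets of small subunits differed. Uqcrb's chosen one averaged 14.18 and 14.11 in C57BL6J and 129S2SvPAs controls and 14.24 and 14.05 in anti-GBM GN. Its other one was at 11.93 and 12.01 against 11.51 and 11.62. For Uqcr10 the chosen one was at 12.00 and 11.90 against 11.75 and 11.90, and another at 9.93 and 10.03 against 9.33 and 9.32. Uqcrh's other one (12.37 and 12.22 against 12.10 and 12.15) showed no wider gap.

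Complex V showed 3 calls. The c-ring gene Atp5g1, one of 3 genes for the rotating ring, was at 12.51, 12.40 and 12.42 in C57BL6J controls, 12.28, 12.11 and 12.20 in C57BL6J anti-GBM GN, 12.33, 12.28 and 12.48 in 129S2SvPAs controls and 12.04, 12.05 and 12.18 in 129S2SvPAs anti-GBM GN. It was lower without overlap in both strains (average difference -0.26, SE 0.07, limma adjusted p = 0.0191), although the mean of its probe sets gave -0.09 (limma adjusted p = 0.246). That mean includes its other probe set, whose mean level of 3.03 is at the table's median. Its paralogues Atp5g2 (-0.21, levels of 11.30 to 11.83 over the 12 arrays) and Atp5g3 (-0.04, levels of 13.55 to 13.80) were not called. The stalk subunits Atp5o (-0.37) and Atp5pb (-0.26) fell, and of the 5 subunits of the catalytic F1 head, from Atp5c1 (-0.23) to Atp5d (-0.03), none was called.

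In complex IV the common subunits showed no call on the probe sets chosen, and the genes that fell on average were Cox7a1 and Cox7a2l. The average call of Cox7a2l (-0.31) was lost without any 1 of 9 arrays (limma adjusted p of 0.0505 to 0.0875), and its difference in 129S2SvPAs was -0.08. Of the 10 common subunits, the median average difference was -0.12. Cox4i1 ranged from 13.73 to 14.06 over the 12 arrays, Cox6a1 from 14.39 to 14.68, Cox6b1 from 13.85 to 14.27, Cox7a2 from 13.47 to 13.75, Cox8a from 11.14 to 11.60 and Ndufa4, a subunit once assigned to complex I, from 12.36 to 13.33. Their average differences were -0.12, -0.01, -0.12, -0.11, -0.14 and -0.23. Of these, Cox6b1 alone was lower without overlap in both strains. Other probe sets gave wider gaps for some common subunits. That of Cox7a2 averaged 13.64 and 13.47 in C57BL6J and 129S2SvPAs controls and 13.34 and 13.19 in anti-GBM GN. That of Cox6c was at 12.61 and 12.50 against 12.04 and 12.36. For Cox6a1 the other one was at 13.19 and 13.14 against 13.10 and 13.08, a small gap. The absence of calls therefore does not show that these subunits were unchanged.

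The isoforms known from heart, skeletal muscle and testis behaved differently among themselves. Cox7a1, the heart and muscle isoform of subunit 7a, was at 8.71, 8.44 and 8.54 in C57BL6J controls, 8.26, 7.53 and 7.73 in C57BL6J anti-GBM GN, 8.84, 8.89 and 10.00 in 129S2SvPAs controls and 7.38, 7.96 and 8.24 in 129S2SvPAs anti-GBM GN. It was lower without overlap in both strains, with the widest average difference of any member (-1.05, SE 0.23, limma adjusted p = 0.00639). By strain the difference was -0.72 (SE 0.32, limma adjusted p = 0.228) in C57BL6J and -1.38 (SE 0.32, limma adjusted p = 0.0118) in 129S2SvPAs. Control replicate 3 of 129S2SvPAs stands above its group at 10.00.

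Cox6b2, known as the testis isoform of subunit 6b, was at 5.49, 5.63 and 6.03 in C57BL6J controls and 5.38, 5.63 and 5.35 in C57BL6J anti-GBM GN. In 129S2SvPAs it was at 8.79, 8.64 and 8.68 in controls and 8.58, 6.97 and 6.81 in anti-GBM GN. All 129S2SvPAs arrays were above all C57BL6J arrays, and 129S2SvPAs anti-GBM GN replicate 1 lay close to its controls. The 129S2SvPAs sequence under the probe sets was not examined, so in every comparison of the strains a different level and a different match of the probes cannot be told apart. The response in 129S2SvPAs was -1.25 (SE 0.37, limma adjusted p = 0.0369), a call lost without either of the other challenged arrays or any 129S2SvPAs control (adjusted p of 0.0736 to 0.13).

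Cox6a2, the heart and muscle isoform of subunit 6a, was at 5.12, 5.03 and 5.47 in C57BL6J controls, 5.39, 5.20 and 5.51 in C57BL6J anti-GBM GN, 5.96, 5.80 and 7.02 in 129S2SvPAs controls and 5.37, 5.33 and 5.42 in 129S2SvPAs anti-GBM GN. Controls of 129S2SvPAs were above the other groups, with replicate 3 the highest, and the response there was -0.89 (SE 0.27, limma adjusted p = 0.0382). Leaving out any 129S2SvPAs anti-GBM GN array ended this call (adjusted p of 0.0692 to 0.0983), and without control replicate 3 the response was -0.51 (limma adjusted p = 0.0475).

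**Figure D3:**
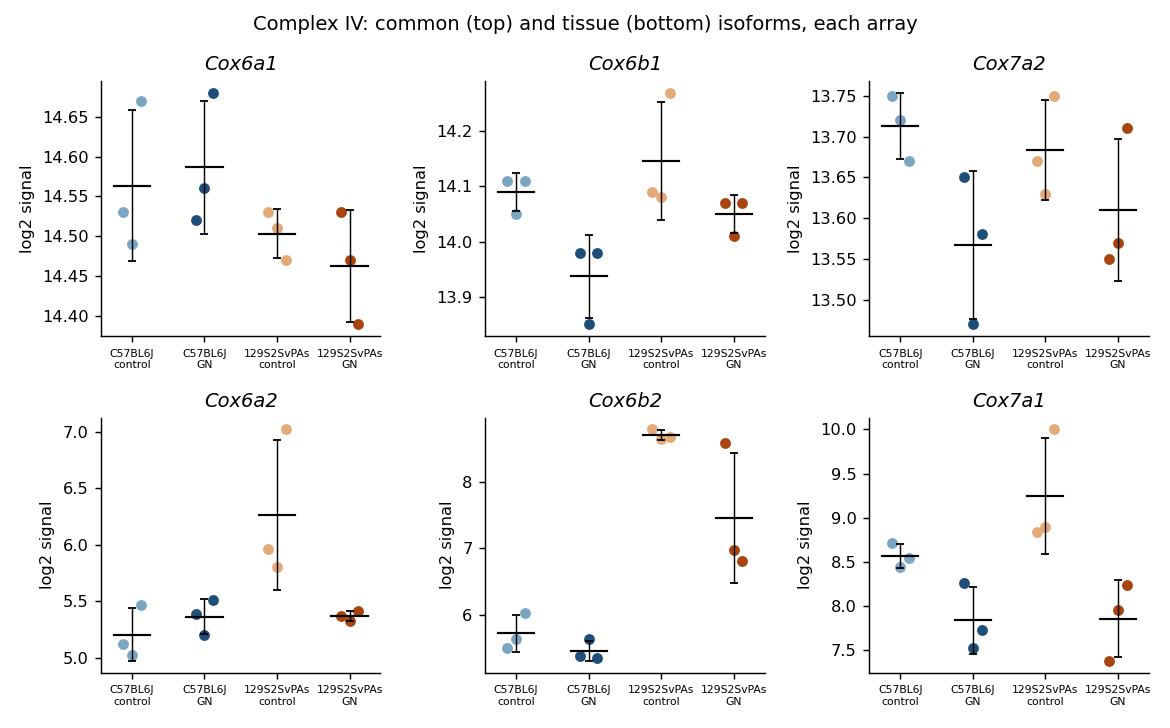
Log2 signal of complex IV paralogues on each array in the 4 groups (n = 3 each), common isoforms in the top row and the tissue isoforms of the same subunits below; lines are means, bars 1 SD, and vertical scales differ between panels and do not start at 0. Cox6a1 stays between 14.39 and 14.68, while Cox6b2 lies at 6.81 to 8.79 in 129S2SvPAs and 5.35 to 6.03 in C57BL6J.

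The remaining isoforms gave little signal. Cox4i2, Cox7b2, Cox8b, Cox8c, Ndufa4l2 and the probe set naming Ndufb4 alone did not pass the filter, and all their values were between 2.05 and 2.67 except Cox8b on 129S2SvPAs anti-GBM GN replicates 2 and 3 (3.04 and 4.21). Ndufb1 and Cox7c were tested on probe sets near the table's median, with mean levels of 3.25 and 3.92, so their differences bear little on the genes. Probe sets annotated to several genes, with 7 such annotations touching members, for example those naming Ndufb4 with its copies, Ndufs6 with Ndufs6b and Ndufa11 with Ndufa11b, were left out by the rule.

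Within C57BL6J the test called 2 members (2.6%) lower and 0 higher, where 7.09% of all genes were called, 2.31% lower and 4.78% higher, so the share called lower was near that of all genes. Cox7a2l, a factor that ties complex III to complex IV and of which C57BL/6 mice are known to carry a shorter form than other strains, was at 10.67, 10.53 and 10.57 in controls and 10.21, 9.92 and 10.05 in anti-GBM GN. The groups were well apart, with a difference of -0.53 (SE 0.13, limma adjusted p = 0.0396), and its other probe sets gave -0.59 and -0.48. In 129S2SvPAs it was at 10.12, 10.39 and 10.57 in controls and 10.37, 10.13 and 10.33 in anti-GBM GN, which overlap (-0.08, SE 0.13). Ndufa6 differed by -0.49 (SE 0.13, limma adjusted p = 0.0481).

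Many more C57BL6J members were separated by array than were called. In 49 of 77 members all challenged arrays were below all controls, and in none above, where 29.1% of all genes had no overlap in either direction and 16% were below. At an unadjusted p under 0.05 there were 26 members (21.2% of all genes). Both calls in C57BL6J were lost when any 1 of the 6 C57BL6J arrays was left out. With the replicate number as a block they were lost too, at a limma adjusted p of 0.0777 for Ndufa6 and 0.056 for Cox7a2l, and the single call was Ndufb5 (-0.45, limma adjusted p = 0.0475). Ndufa6 was also not called with no filter on low values (0.0533) or a stricter one (0.0554). The 129S2SvPAs arrays enter the estimate of the spread, and the C57BL6J count was 4 without 129S2SvPAs anti-GBM GN replicate 1, 3 without control replicate 3 and 1 without any of the other 4.

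Within 129S2SvPAs the test called 14 members lower and 0 higher, where 20.3% of all genes were called, 9.76% lower and 10.6% higher. They were 9 genes of complex I (Ndufa6, Ndufs3, Ndufa9, Ndufs5, Ndufc2, Ndufs1, Ndufb10, Ndufb3 and Ndufs8), Sdhb of complex II, Uqcrc2 of complex III and the isoforms Cox7a1, Cox6b2 and Cox6a2 of complex IV, with none of complex V. In complex I the differences ran from Ndufa6 (-0.64, SE 0.13, limma adjusted p = 0.00596) and Ndufs1 (-0.51) to Ndufs8 (-0.30). Ndufs3 differed by -0.43 (SE 0.10, limma adjusted p = 0.00972). The challenged arrays were below all controls in 32 members and above in none, where 32.5% of all genes had no overlap in either direction and 16.1% were below. The count of calls was 7 without control replicate 1, 8 without anti-GBM GN replicate 2 and 9 without control replicate 3. By gene, the call of Ndufs8 was lost without any 1 of 6 129S2SvPAs arrays (limma adjusted p of 0.0668 to 0.136). That of Sdhb was lost without any 1 of 5, and those of Ndufb10 and Ndufb3 without any 1 of 4. Those of Ndufs1 and Uqcrc2 were lost without any 1 of 3, and that of Ndufc2 without either of 2. Without any 1 C57BL6J array, each of which bears on the spread alone, it was 8 to 10. The 14 calls thus rest on a spread estimated with the C57BL6J arrays. With only the 129S2SvPAs groups fitted, 1 member was called, Ndufa6 (-0.64, limma adjusted p = 0.044), and 1415 of all genes.

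Across strains, 68 of the 77 members were below 0 in both, where 38.8% of all genes were. In 26 members the challenged arrays were below all controls in both strains, where 7.16% of all genes were: 13 of complex I, 2 of complex II, 4 of complex III, 2 of complex IV and 5 of complex V. Of the 27 members called on average, 14 were called in neither strain alone. The plot of responses by strain shows most genes in a cloud below 0 on both axes.

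**Figure D4:**
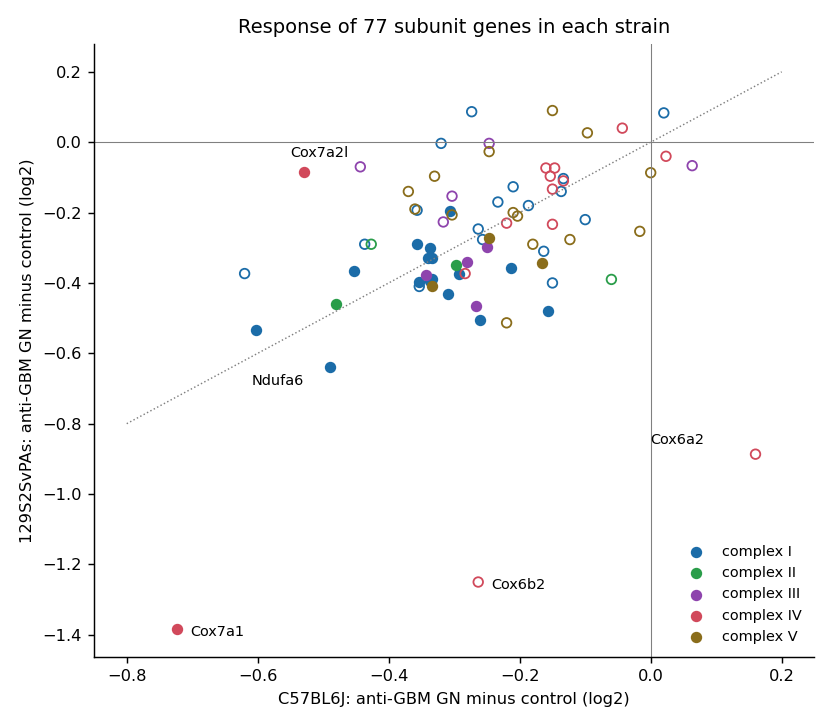
Difference between anti-GBM GN and control (log2) of each of the 77 tested subunits in C57BL6J (horizontal) and 129S2SvPAs (vertical), coloured by complex; filled circles are the 27 genes called lower on average, and the dotted line marks equal responses. Most genes lie below 0 on both axes, Cox7a1 is at -0.72 and -1.38, and Cox6a2 is at 0.16 and -0.89.

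The responses of the strains were compared directly as a difference, 129S2SvPAs minus C57BL6J. Limma called 0 of the 77 members, where 0.562% of all genes were called (0.268% higher and 0.294% lower), and 2 members had an unadjusted p under 0.05 (10.9% of all genes). These were Cox6a2 (-1.05, 95% interval -1.88 to -0.21, limma adjusted p = 0.333) and Cox7a2l (0.45, 95% interval 0.03 to 0.87, limma adjusted p = 0.432). The median difference of responses over the members was 0.00 and single values ran from -1.05 to 0.45. The 95% interval of a member's difference reached a median of 0.42 to either side, which is wider than the median response itself, so these data do not show that the strains responded alike. Without 129S2SvPAs anti-GBM GN replicate 1 the test called 1 member, Cox6b2 (-1.55, limma adjusted p = 0.0126, against -0.99 and 0.555 with it).

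Between control mice of the strains, 2 members were higher in 129S2SvPAs and 0 lower, where 8.43% of all genes were called, 3.32% higher and 5.11% lower, and 5 members had an unadjusted p under 0.05 (22.3% of all genes). Cox6b2 was higher by 2.99 (SE 0.37, limma adjusted p = 0.000628), a call kept when any of the 6 control arrays was left out, and Cox6a2 by 1.05 (SE 0.27, limma adjusted p = 0.0351), a call lost without C57BL6J control replicate 1 or 2 and without any 1 of 4 challenged arrays. Without 129S2SvPAs control replicate 3 the Cox6a2 difference was 0.67 (limma adjusted p = 0.0303). The median over the 77 members was -0.06, beside 0.00 over all genes. In the same comparison the podocyte list was lower in 129S2SvPAs, with 10 of 17 markers called and a median of -1.29, as was the endothelial list, with 6 of 20 called and a median of -1.15. Their part in the members' strain differences was not tested.

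Between challenged mice 1 member was higher in 129S2SvPAs and 3 were lower, where 8.38% of all genes were called, 3.49% higher and 4.89% lower. Cox6b2 was higher by 2.00 (SE 0.37, limma adjusted p = 0.00745). The complex I genes Ndufa12, an accessory subunit of the input module, Ndufs5 and Ndufc2, accessory subunits of the membrane arm, were lower. Ndufs5 was at 11.68, 11.59 and 11.55 in C57BL6J anti-GBM GN and 11.21, 11.20 and 11.21 in 129S2SvPAs anti-GBM GN, a difference of -0.40 (SE 0.09, limma adjusted p = 0.017). Ndufc2 was at 12.96, 12.86 and 12.87 against 12.33, 12.39 and 12.54 (-0.48, SE 0.12, limma adjusted p = 0.0333). The count of 4 was 2 without C57BL6J anti-GBM GN replicate 1 or 2 or 129S2SvPAs anti-GBM GN replicate 2.

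Ndufa12 was at 12.70, 12.78 and 12.77 in C57BL6J anti-GBM GN and 12.27, 12.14 and 11.58 in 129S2SvPAs anti-GBM GN (-0.75, SE 0.16, limma adjusted p = 0.0165). Its other 3 probe sets gave strain differences of 0.34, 0.04 and -0.14 in challenged mice, and the mean of all 4 gave -0.13 (limma adjusted p = 0.449). The probe set at 0.04 has a mean level of 3.19, near the table's median, and bears little on the gene. The strain difference of Ndufa12 therefore belongs to its brightest probe set. For the response to serum the probe sets disagreed less: of 44 members with several tested probe sets, 38 had all of them below 0 on average, and the 46 calls among 149 probe sets were all lower.

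Tubule markers were lower by list median in anti-GBM GN, as the members were, and markers of other cell types differed. In 129S2SvPAs 7 of the 21 tested proximal tubule markers fell, among them Slc5a2, Lrp2, Cubn and Cyp2e1, with a list median of -0.57, and in C57BL6J Cyp2e1 fell, with a list median of -0.14. With the list's mean as a covariate limma called none of the 77 members in either strain and 1 on average, and the median differences were -0.45 in 129S2SvPAs and -0.31 in C57BL6J. Calls over all 11921 genes went down as well, from 2424 to 73 in 129S2SvPAs, from 845 to 424 in C57BL6J and from 3170 to 319 on average. The average call among the members was Ndufb3 (-0.71, limma adjusted p = 0.0488).

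The list for the loop, distal tubule and collecting duct had 7 of 18 markers lower and 2 higher in 129S2SvPAs, with a median of -0.50 and mean levels of 8.77 to 8.84 in controls against 7.93 to 8.30 in anti-GBM GN. In C57BL6J 1 of the 18 was lower, with a median of -0.24. Endothelial markers went the other way in 129S2SvPAs, with 10 of 20 called higher and 1 lower. Mesangial and smooth muscle markers were higher too, 6 of 13 in 129S2SvPAs (median 0.87) and 4 of 13 in C57BL6J (median 0.58), as were 2 and 3 of the 4 platelet markers. Podocyte markers were mixed, with 3 of 17 called higher and 3 lower in 129S2SvPAs, and 1 higher and 1 lower in C57BL6J. No leukocyte marker was called in either strain. The part of these cell types, and of the proximal tubule, in the members' responses was not tested. In 129S2SvPAs the proximal tubule level did not overlap between the groups. The covariate and the response to serum therefore cannot be told apart there.

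Single arrays also stood out among the members. The 129S2SvPAs control replicate 3 was the highest of its group for 57 of 77 members and had the lowest endothelial level of all arrays, 6.83. C57BL6J anti-GBM GN replicate 2 was the lowest of its group for 45 members. Spread between replicates was wider in 129S2SvPAs: the median SD of a member was 0.18 in anti-GBM GN and 0.14 in controls, against 0.12 and 0.07 in C57BL6J.

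Other genes of mitochondrial respiration were followed through 4 lists. Of 18 tested genes of the tricarboxylic acid cycle and pyruvate entry, 4 fell in 129S2SvPAs (22.2%), 1 in C57BL6J (5.56%) and 10 on average (55.6%), with no rise. Over all genes the shares called lower were 9.76%, 2.31% and 13.6% in the same order, and these stand beside each list that follows. The list's medians were -0.33, -0.22 and -0.28. The succinyl-CoA ligase subunits Suclg1 and Suclg2 fell by 0.61 and 0.62 in 129S2SvPAs, and Idh2, the mitochondrial NADP-dependent isocitrate dehydrogenase, fell by 0.50 (limma adjusted p = 0.00728). Suclg1 alone fell in C57BL6J (-0.47, SE 0.12, limma adjusted p = 0.0374). The enzyme activity of citrate synthase (Cs) is often used as a measure of mitochondrial content, which these transcript values do not measure. Cs was at 11.62, 11.50 and 11.61 in C57BL6J controls and 11.63, 11.81 and 11.83 in C57BL6J anti-GBM GN. In 129S2SvPAs it was at 11.84, 11.69 and 11.18 in controls and 11.44, 11.73 and 11.76 in anti-GBM GN. Its challenged arrays lay just above the controls in C57BL6J and overlapped them in 129S2SvPAs, and its differences of 0.18 in C57BL6J and 0.07 in 129S2SvPAs were not called.

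Of 42 tested assembly factors 7 fell in 129S2SvPAs (16.7%), 3 in C57BL6J (7.14%) and 12 on average (28.6%), with medians of -0.22, -0.43 and -0.27. The complex I assembly factor Acad9 fell in both strains, by 0.60 in 129S2SvPAs and 0.55 in C57BL6J. Foxred1 (-0.68) and Ecsit (-0.65), which also act on complex I, fell in 129S2SvPAs, and the complex III factor Uqcc1 (-0.78) and the complex IV factor Surf1 (-0.42) fell in C57BL6J. Among 23 electron carriers and inner membrane exchangers 5 fell in 129S2SvPAs (21.7%), 1 in C57BL6J (4.35%) and 9 on average (39.1%), with medians of -0.24, -0.32 and -0.29. Coq9, a coenzyme Q synthesis protein, fell in both strains (-0.62 and -0.48). Coq8a (-1.38) and the oxoglutarate carrier Slc25a11 (-0.93) fell in 129S2SvPAs. The C57BL6J calls of Suclg1, Acad9, Uqcc1, Surf1 and Coq9 were each lost without at least 4 of the 6 C57BL6J arrays in turn, and those of Suclg1, Surf1 and Coq9 with the replicate block (adjusted p of 0.0628 to 0.0708). Cytochrome c (Cycs) was not called in either strain, with differences of 0.03 in C57BL6J and -0.21 in 129S2SvPAs.

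Nicotinamide nucleotide transhydrogenase (Nnt), in which C57BL/6J mice are known to carry a deletion, was at 9.90, 9.59 and 9.68 in C57BL6J controls, 9.62, 9.53 and 9.69 in C57BL6J anti-GBM GN, 11.15, 11.09 and 10.73 in 129S2SvPAs controls and 9.80, 10.44 and 10.31 in 129S2SvPAs anti-GBM GN. Controls of 129S2SvPAs were above all C57BL6J arrays by a mean of 1.27 over the C57BL6J controls (SE 0.18, limma adjusted p = 0.0013). In 129S2SvPAs it fell by 0.81 (SE 0.18, limma adjusted p = 0.00847).

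Among 20 regulators of mitochondrial biogenesis 6 fell (30%) and 1, the coactivator Pprc1 (0.97), rose in 129S2SvPAs, while 1 fell in C57BL6J (5%) and 7 fell on average (35%), with medians of -0.32, -0.20 and -0.33. Ppargc1a was at 8.30, 8.18 and 8.18 in C57BL6J controls, 7.89, 8.26 and 7.99 in C57BL6J anti-GBM GN, 8.42, 8.42 and 8.44 in 129S2SvPAs controls and 7.50, 7.19 and 7.34 in 129S2SvPAs anti-GBM GN. The challenged 129S2SvPAs arrays were below all others, while the C57BL6J groups overlapped. It fell by 1.08 in 129S2SvPAs (SE 0.12, limma adjusted p = 0.000167), and the difference in C57BL6J was -0.17 (SE 0.12, limma adjusted p = 0.47). The difference of responses was -0.91 (SE 0.17, limma adjusted p = 0.0479), a call lost when any array other than 129S2SvPAs anti-GBM GN replicate 1 was left out.

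The estrogen-related receptors Esrrg (-1.16, SE 0.16, limma adjusted p = 0.000692) and Esrra (-0.82, SE 0.18, limma adjusted p = 0.00883) fell in 129S2SvPAs and were at -0.32 and -0.44 in C57BL6J, not called there. Their differences of responses were not called (-0.83 and -0.38). Tfam, which packages and transcribes mitochondrial DNA, was at 8.75, 8.35 and 8.28 in C57BL6J controls and 7.85, 7.48 and 7.91 in C57BL6J anti-GBM GN, and at 8.58, 8.70 and 9.08 and 7.84, 8.13 and 8.44 in the same groups of 129S2SvPAs. The challenged arrays were below the controls in both strains, with differences of -0.71 (limma adjusted p = 0.0609) and -0.65 (limma adjusted p = 0.0441), and the latter call was lost without 129S2SvPAs anti-GBM GN replicate 1 or 2 or control replicate 2 or 3 (adjusted p of 0.0723 to 0.139). The mitochondrial transcription factor Tfb2m fell in both strains, by 0.68 in C57BL6J and 0.50 in 129S2SvPAs.

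**Figure D5:**
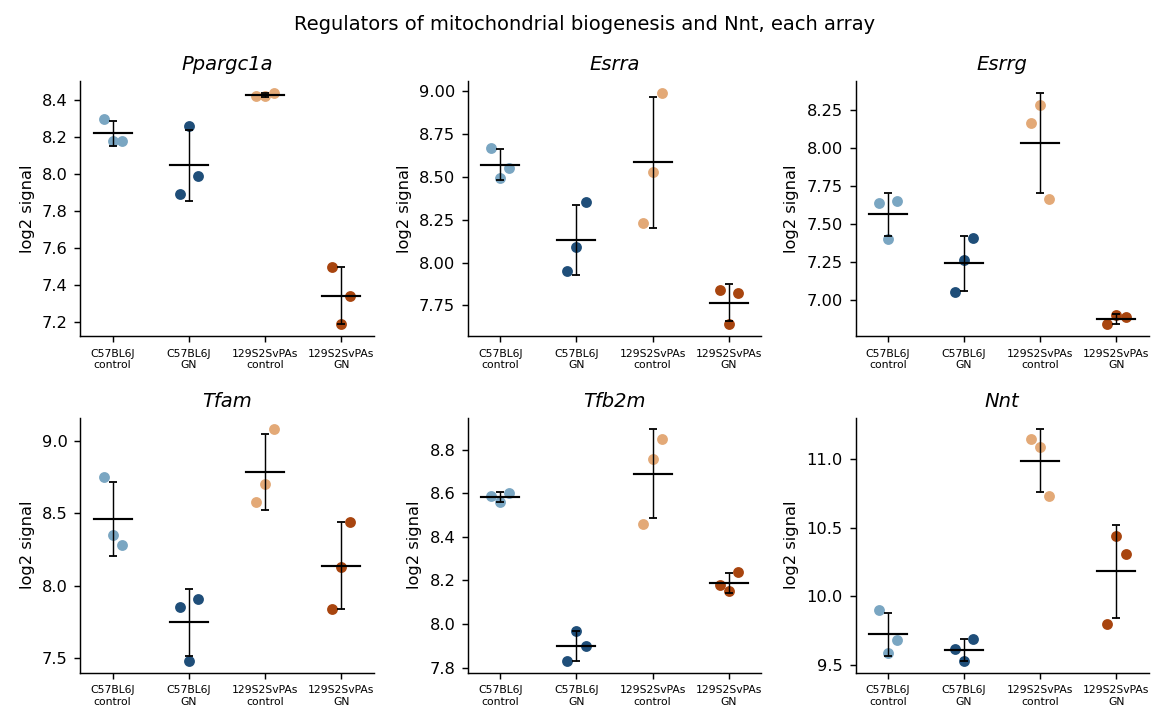
Log2 signal of 5 regulators of mitochondrial biogenesis and of Nnt on each array in the 4 groups (n = 3 each); lines are means, bars 1 SD, and vertical scales differ between panels and do not start at 0. The 3 challenged 129S2SvPAs arrays of Ppargc1a sit at 7.19 to 7.50, below all other arrays, and Nnt is highest in the 129S2SvPAs controls.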

How the data were processed

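As deposited, the values are log2 signals of an Affymetrix assay, per the labels with biotin-labelled RNA, for 45037 probe sets on 12 arrays, with array medians of 2.99 to 3.06. MAS5 and GCRMA are named in the submitters' processing notes, with no version, and neither is tied to the values there. Their range, 1.12 to 15.02, shows the log2 scale. No array dates were given in the sources used here, so no batch was tested. Probe sets with 1 gene symbol (34957) were kept, and each gene was represented by the one with the highest mean. Of the tested members 7 rest on probe sets with the suffix _x_at and 12 with _s_at, which can match several transcripts.

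Group means were fitted over all 12 arrays with limma 3.58.1 in R 4.3.3 (10.7 total degrees of freedom), with 6 contrasts, each Benjamini-Hochberg adjusted; the fit was tested on simulated data. Members and lists were chosen with earlier results of these data known. The named members are, per contrast, the 3 called with the lowest p (or the 2 lowest), the leading member of each complex, and paralogue pairs; of other lists, the 3 lowest per strain response and Ppargc1a, Tfam, Cs, Cycs and Nnt. Genes outside this rule, such as Pprc1, were named after their values were seen. Replicate numbers come from the labels. Deviations from the group means of same-numbered arrays correlated at 0.208 to 0.33 between the C57BL6J groups and 0.239 to 0.284 between the controls. The numbers may therefore pair those arrays, though the labels state no pairing. Correlations were -0.157 to 0.183 between the 129S2SvPAs groups and -0.38 to 0.121 between the challenged groups, where no pairing was seen. They were 0.098 to 0.214 between C57BL6J anti-GBM GN and 129S2SvPAs controls. Between C57BL6J controls and 129S2SvPAs anti-GBM GN they were -0.329 to 0.103. With 3 pairs per comparison these values cannot exclude pairing. The p-values of the main fit use no block. The block alternative gives the same replicate effects to all 4 groups, so it is not a paired test of the groups that may be paired. Alternatives were other normalizations, filters, probe set summaries, priors, weights, a replicate block, a tubule covariate and leaving out each array.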

Additional observations from a re-analysis of the deposited data

Results flagged for a closer look

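The response of Ppargc1a differed between the strains by -0.91 (129S2SvPAs minus C57BL6J, SE 0.17, limma adjusted p = 0.0479), which brings it here because the test of the difference itself passed. It was lower in all 3 challenged 129S2SvPAs arrays than in all 3 controls, and the C57BL6J groups overlapped. No subunit of the respiratory chain passed the same test.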

How the results depend on the processing

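Every median response of the members and of each complex was below 0, in 144 values over both strains, and 14 moved by more than 1 SD of the replicates. The settings were the other normalizations and filters, the mean of probe sets, the tubule covariate and leaving out 1 array of that strain. Medians were not taken under the other priors, weights, block or the fit of only the compared groups. With tubule markers as a covariate the 129S2SvPAs medians were -0.449 over all members and -0.494, -0.447, -0.329 and -0.48 in complexes I, III, IV and V. For complex II they were -0.308 in 129S2SvPAs and -0.3 in C57BL6J under quantile normalization, and -0.294 and -0.285 with the mean of probe sets. Leaving out 1 array gave 129S2SvPAs medians of -0.315 to -0.18 over all members, -0.455 to -0.332 in complex II, -0.31 to -0.123 in complex III and -0.273 to -0.102 in complex V, and C57BL6J medians of -0.414 to -0.292 in complex II.

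Counts of members called moved further, and are given with the count over all genes in brackets. In 129S2SvPAs 14 (2424) became 22 (3830) with array weights, 1 (1415) when only the compared groups were fitted, 0 (73) with the tubule covariate and 5 (2206) at an absolute change of at least 0.5, and 7 to 12 without 1 array of that strain. In C57BL6J 2 (845) became 0 (856) under quantile normalization, 5 (660) with no filter, 1 (672) with the stricter filter, 6 (842) with the mean of probe sets, 4 (817) with a trended prior, 18 (2021) with array weights, 4 (976) when only the compared groups were fitted, 0 (424) with the covariate, 1 (803) at the larger change and 0 without any 1 of the 6 C57BL6J arrays. On average 27 (3170) became 1 (319) with the covariate, 3 (2193) at the larger change and 15 to 35 without 1 array. The difference of responses had 1 call with array weights (Cox6b2) and 0 to 1 without 1 array. Between challenged mice 4 (999) became 0 (578) when only the compared groups were fitted, 2 (519) with the covariate, 2 (957) at the larger change and 2 to 5 without 1 of their arrays. Between controls 2 (1005) became 1 (822) with the stricter filter, 1 (687) with the covariate and 1 to 2 without 1 of their arrays, and 1 to 3 without 1 challenged array. Causes were not tested.

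Small medians changed sign: the difference of responses was -0.079 over all members and -0.101 in complex I with the covariate, and -0.057 to 0.087 in complex III without 1 array. Between challenged mice complex II was 0.085 with the mean of probe sets, 0.064 with the covariate and -0.073 to 0.109 without 1 array. Between controls complex V was 0.038 with the covariate and -0.088 to 0.027 without 1 array.

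With the replicate block the counts of members called were 9 (2380) in 129S2SvPAs, 1 (857) in C57BL6J, 23 on average, 0 for the difference, 4 between challenged mice and 2 between controls. In C57BL6J the 1 call is Ndufb5, and neither Ndufa6 nor Cox7a2l was called. In 129S2SvPAs the correlations showed no pairing by number but cannot exclude it. A call lost under the block there is no sign of a smaller difference.

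None of 98 single-gene results changed sign, but all were chosen as called in the main fit, which makes a change of sign unlikely. Of 1909 alternative values of these results, 428 lost the call. The alternatives for pathway lists were added after seeing the data. Under them the Ppargc1a difference of responses lost its call with quantile normalization (limma adjusted p = 0.0536), the stricter filter (0.0871), a trended prior (0.0604), the block (0.106), the covariate (0.305) and single arrays left out (up to 0.145). Scaling moved the median of all genes by at most 0.037. Values near the array medians lie on a floor, which hides differences of dim genes.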
